A study of Mus musculus with 17 samples.

Results

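The visual cycle genes measured here were Rpe65, Lrat, Rdh5, Rdh10, Rdh11, Rlbp1, Rgr, Rrh and Stra6, which were taken by symbol from a table of 22253 genes, and all 9 were found. Their levels were compared between 3 groups of hand-picked retinal pigment epithelium (RPE) cells from the eyes of Serpine3GFP/+ mice aged 2 months, in 17 RNA-seq libraries. GFP+-RPE cells came from the periphery of the eyecup (6 libraries), and GFP–-RPE cells were picked as controls from the periphery (5 libraries) and from the center (6 libraries). All 3 groups carry the same allele, with GFP inserted into a single copy of Serpine3, so that no library came from a mouse without the reporter. GFP+ cells differ from peripheral GFP– cells by having been chosen for their fluorescence. From central GFP– cells they differ by both fluorescence and position, which cannot be told apart in that comparison. Each library is a pool of 10 to 15 cells according to the labels. The animals are called mouse 1 to mouse 7 here. Libraries of mouse 1 bear 2 animal numbers, read here as a pool of both. All 3 groups were sampled in mice 1, 2, 4, 5 and 7, only GFP+-RPE in mouse 3 and only central GFP–-RPE in mouse 6.

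The visual cycle is the enzymatic route by which RPE and photoreceptors rebuild the light-sensitive cis isomer of retinal after light has turned it into the all-trans form. All-trans-retinol that reaches the RPE is esterified by LRAT, the ester is converted to cis-retinol by RPE65, and retinol dehydrogenases of the RDH family oxidize the product to the retinal that returns to the photoreceptors. CRALBP, encoded by Rlbp1, carries the cis retinoids inside the cell. RGR and peropsin, the product of Rrh, are opsins of the RPE that bind retinal, and STRA6 is the membrane receptor that takes up retinol from its carrier in the blood.

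Total counts per library ranged from 9896118 to 22467079. The reporter gene went with the labels: Serpine3 had 107 to 576 counts in the 6 GFP+-RPE libraries, 0 in the 6 central libraries and, in the peripheral GFP–-RPE libraries, a count above 0 in 1 of 5, with 5 counts. The libraries differed in makeup. Mitochondrial genes took 0.710% to 17.2% of the counts in GFP+-RPE, 12.5% to 30.4% in peripheral GFP–-RPE and 13.7% to 47.3% in central GFP–-RPE, and the central libraries of mice 4, 5 and 7 had 6681, 5392 and 6430 genes with at least 10 counts against 7966 to 10543 in the other 14. Levels are given as CPM, the count of a gene relative to the TMM-scaled library total, which sets the bulk of genes equal between libraries.

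All 9 visual cycle genes were detected in all 17 libraries, with no count of 0. Together they made up 3.94% to 5.86% of the counts in GFP+-RPE, 2.79% to 5.29% in peripheral GFP–-RPE and 1.80% to 4.90% in central GFP–-RPE, shares that overlapped between all groups. The lowest share, 1.80%, was that of the central library of mouse 5, in which mitochondrial genes took 47.3% of the counts. Since these are pools of cells, fewer cells with a transcript and less of it in each cell cannot be told apart.

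**Figure D1:**
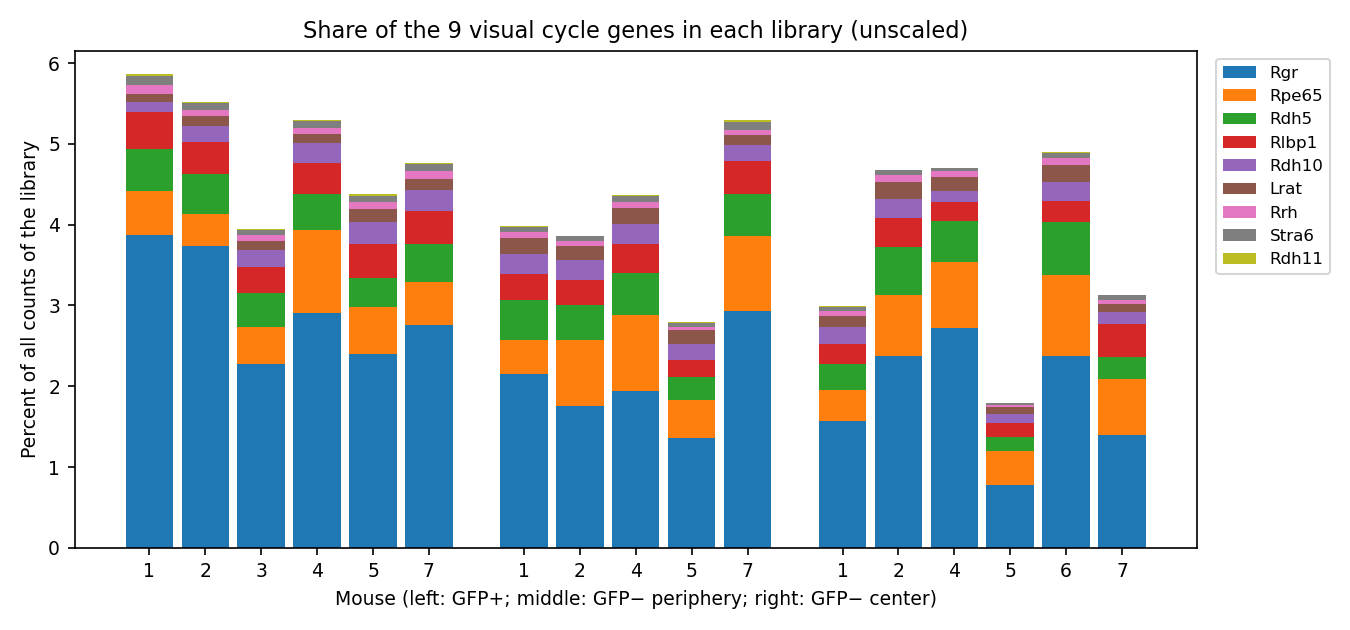
Percent of all counts of a library (y axis, unscaled) taken by each of the 9 visual cycle genes, stacked, in each of the 17 libraries (x axis, by group and mouse). Rgr is the largest segment throughout, and the summed share runs from 1.80% in the central library of mouse 5 to 5.86% in the GFP+-RPE library of mouse 1.

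Among all genes, Rgr ranked 10 by mean CPM over the 17 libraries, Rpe65 18, Rdh5 26, Rlbp1 31, Rdh10 41, Lrat 54, Rrh 133, Stra6 143 and Rdh11 1165. Levels were compared between genes per kilobase (kb) of transcript. Per kb of the longest principal (APPRIS) transcript of GENCODE, mean levels fell in the order Rgr (5308 CPM per kb), Rpe65 (3644), Rdh5 (3460), Rlbp1 (1544), Rdh10 (578), Rrh (391), Lrat (277), Stra6 (214) and Rdh11 (33.2). Some neighbours in this order were not separated: Rpe65 was above Rdh5 in 10 of 17 libraries, Lrat above Stra6 in 11 of 17 and Rgr above Rpe65 in 13 of 17, whereas Rdh5 exceeded Rlbp1, Rlbp1 exceeded Rdh10 and Stra6 exceeded Rdh11 in every library. The order also depended on the gene model. Per kb of coding sequence Rgr stood at 25782 CPM, Rdh5 at 4563, Rpe65 at 4246, Rlbp1 at 3478, Lrat at 2136, Rdh10 at 2028, Rrh at 680.5, Stra6 at 328 and Rdh11 at 114, so that Lrat, with 693 coding bases in a transcript of 5351, moved above Rdh10 and Rrh.

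LRAT, which makes retinyl esters, is encoded on the minus strand at chr3:82892579-82903973 (GRCm38). Lrat CPM in the GFP+-RPE libraries ran from 798 through a median of 898 to 1480.5. The peripheral GFP–-RPE libraries of mice 1, 2, 4, 5 and 7 had 1586, 1525, 1748, 1937 and 1381, and the central libraries ran from 1241 through 1800 to 2276. The ranges overlapped in both comparisons, yet 5 of 6 GFP+-RPE libraries lay below all 5 peripheral GFP–-RPE libraries and 4 of 6 below all 6 central ones, with the GFP+-RPE library of mouse 5 the highest of its group. Mean Lrat CPM was 1034 ± 268 in GFP+-RPE (SD, n = 6), 1635 ± 214 in the GFP– periphery (SD, n = 5) and 1797 ± 424 in the GFP– center (SD, n = 6). Among the 5 mice with all groups, TMM-scaled Lrat CPM was lower in GFP+-RPE than in either control of the same mouse in 5 of 5. With library totals in place of TMM this held in 3 of 5 against the center and in 4 of 5 against the periphery.

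The fitted log2 fold change of Lrat in GFP+-RPE was −0.79 against central GFP–-RPE (SE 0.23, 95% interval −1.27 to −0.31) and −0.65 against peripheral GFP–-RPE (SE 0.20, interval −1.07 to −0.23). Neither passed the test across all genes: the unadjusted p of edgeR's quasi-likelihood test was 0.00279 and the adjusted p 0.174 against the center, and 0.00483 and 0.595 against the periphery. Without the central libraries of mice 4, 5 and 7 the log2 fold change against the center was −0.76, with an adjusted p of 0.513. The GFP–-RPE groups themselves differed by −0.13 (interval −0.61 to 0.36, periphery against center).

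RPE65, the isomerase of the cycle, is encoded on the plus strand at chr3:159599175-159625321. In GFP+-RPE, Rpe65 CPM ran from 3045 through a median of 4614 to 8464, the highest being mouse 4. It was 3382, 7273, 8440.0, 5048 and 10321 in the peripheral GFP–-RPE libraries of mice 1, 2, 4, 5 and 7 and ran from 3603 through 9655 to 11086 in the center. The groups overlapped, since the lowest library of each control group, mouse 1 in both cases, fell inside the GFP+-RPE range. Mean CPM was 4948 ± 1867 (SD, n = 6), 6893 ± 2740 (SD, n = 5) and 8544 ± 2939 (SD, n = 6) in GFP+-RPE, peripheral and central GFP–-RPE. In GFP+-RPE the log2 fold change was −0.78 against the center (SE 0.30, interval −1.40 to −0.16), with an unadjusted p of 0.0169 and an adjusted p of 0.542 in edgeR. Against peripheral GFP–-RPE it was −0.46 (interval −1.09 to 0.17, adjusted p 1.00). Without the peripheral library of mouse 7 it was −0.28, and without the GFP+-RPE library of mouse 4 it was −0.68, with an unadjusted p of 0.0298 in edgeR. Within mice, Rpe65 was lower in GFP+-RPE than in the center in 4 of 5 and higher in mouse 1 (lower in 2 of 5 by library totals), and it was higher than in the periphery in 3 of 5 and lower in 2. Without the central libraries of mice 4, 5 and 7 the value against the center was −0.46, with an unadjusted p of 0.203 in edgeR.

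The 3 dehydrogenases differed from each other in level and in spread. RDH5, the main cis-retinol dehydrogenase of the RPE, had a mean CPM of 3801 ± 431 in GFP+-RPE (SD, n = 6), 4272 ± 949 in the GFP– periphery (SD, n = 5) and 4973 ± 1747 in the GFP– center (SD, n = 6). All 6 GFP+-RPE libraries, at 3245 to 4405, lay inside the central range of 2980 to 7058. The log2 fold change was −0.38 against the center (interval −0.88 to 0.12) and −0.15 against the periphery (interval −0.55 to 0.25). Exons of Rdh5 (chr10:128913593-128922888, minus strand) overlap those of Bloc1s1 on the same strand, so that its counts may share reads with that gene.

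RDH10, which oxidizes retinol and also serves retinoic acid synthesis, varied least of the 9 genes, with a coefficient of variation of 17.5% over the 17 libraries. Rdh10 CPM was 1890 to 2261 in the 5 peripheral GFP–-RPE libraries and 1945 to 2616 in the 6 central ones. GFP+-RPE reached lower, from 1094 in mouse 1 to 2407 in mouse 5, with the libraries of mice 1, 2 and 3 below every library of either control group and 2 of 6 libraries above every peripheral one. In mice 1 to 3 the mean was 1479 in GFP+-RPE (n = 3), 2016 in the GFP– periphery (n = 2) and 2038 in the GFP– center (n = 2), and in mice 4 to 7 it was 2283, 2211 and 2310 (n = 3, 3 and 4). Its log2 fold change was −0.23 against the center (interval −0.69 to 0.22) and −0.17 against the periphery (interval −0.60 to 0.27). Rdh10 lies at chr1:16105774-16133734 on the plus strand.

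Rdh11, for a dehydrogenase that accepts both cis and all-trans retinol, showed the opposite pattern of spread. Its CPM was 102 to 147 in the 6 GFP+-RPE libraries, 136, 51.6, 142, 25.6 and 219 in the peripheral GFP–-RPE libraries of mice 1, 2, 4, 5 and 7, and 4.31 to 134 in the center. The lowest value, from the central library of mouse 7, rested on 37 counts, and the highest library of the 17 was 50.7-fold above it. The SD was 20.8 in GFP+-RPE (mean 131, n = 6), 77.3 in peripheral GFP–-RPE (mean 115, n = 5) and 46.8 in central GFP–-RPE (mean 79.7, n = 6), so that the GFP+-RPE libraries were the closest to each other. Rdh11 was higher in GFP+-RPE than in the center of the same mouse in 5 of 5 mice, but the fitted log2 fold change of 0.72 had an interval from −0.35 to 1.80 and an adjusted p of 1.00 in edgeR. Leaving out the central library of mouse 7 gave 0.47. The gene is encoded at chr12:79174337-79192293 on the minus strand.

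Of the binding proteins, Rlbp1 (chr7:79374870-79387048, minus strand) was at nearly the same mean of TMM-scaled CPM in all groups. It had 3321 ± 444 CPM in GFP+-RPE (SD, n = 6), 3056 ± 882 in the GFP– periphery (SD, n = 5) and 3503 ± 1291 in the GFP– center (SD, n = 6). By library totals the means were 3949, 3213 and 2791 CPM in the same order. With TMM, the intervals of its log2 fold changes ran from −0.56 to 0.42 against the center and from −0.29 to 0.57 against the periphery. A change of 1 log2 unit, the limit used for calls, lay outside both, as it did for Rdh5, Rdh10, Rgr, Rrh and Stra6. By library totals the value of Rlbp1 against the center was 0.50, and these intervals do not apply to it. In the center the library of mouse 7, at 5947, stood above the other 5, which ran from 2320.1 to 3761.

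The opsins of the RPE were the most and among the least abundant members. Rgr (chr14:37034909-37048964, minus strand) had 25022 ± 4978 CPM in GFP+-RPE (SD, n = 6), 19433 ± 7272 in the GFP– periphery (SD, n = 5) and 22555 ± 8145 in the GFP– center (SD, n = 6). The peripheral GFP–-RPE libraries of mice 1, 2, 4 and 5 lay between 14938 and 17390.3, below all 6 GFP+-RPE libraries (18923 to 32453), whereas mouse 7 reached 32317. The log2 fold change of GFP+-RPE against the periphery was 0.39 (interval −0.15 to 0.92), and 0.16 against the center (interval −0.38 to 0.69). Without the peripheral library of mouse 7 the former was 0.63, with an unadjusted p of 0.0114 and an adjusted p of 0.482 in edgeR.

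Rrh, which encodes peropsin (chr3:129804408-129822587, minus strand), had 657 to 875 CPM in GFP+-RPE with a median of 712. In the peripheral GFP–-RPE libraries of mice 1, 2, 4, 5 and 7 it was 565, 573, 688, 347 and 612, and in the center it ran from 531 through 701 to 1018. Of the GFP+-RPE libraries, 3 of 6 were above the peripheral range and the others near its upper end, and within mice Rrh was higher in GFP+-RPE than in peripheral GFP–-RPE in 4 of 5. The log2 fold change against the periphery was 0.43 (SE 0.19, interval 0.02 to 0.84, unadjusted p 0.0407, adjusted p 0.851 in edgeR), and against the center it was 0.01 (interval −0.42 to 0.44). It was 0.31 without the peripheral library of mouse 5, with an unadjusted p of 0.0828 in edgeR.

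Stra6, the retinol receptor gene at chr9:58063788-58153996 on the plus strand, had 693 ± 181 CPM in GFP+-RPE (SD, n = 6), 680 ± 281 in the GFP– periphery (SD, n = 5) and 607 ± 170 in the GFP– center (SD, n = 6). The ranges overlapped throughout, and the log2 fold change of GFP+-RPE was 0.20 against the center (interval −0.31 to 0.71) and 0.05 against the periphery (interval −0.48 to 0.58).

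**Figure D2:**
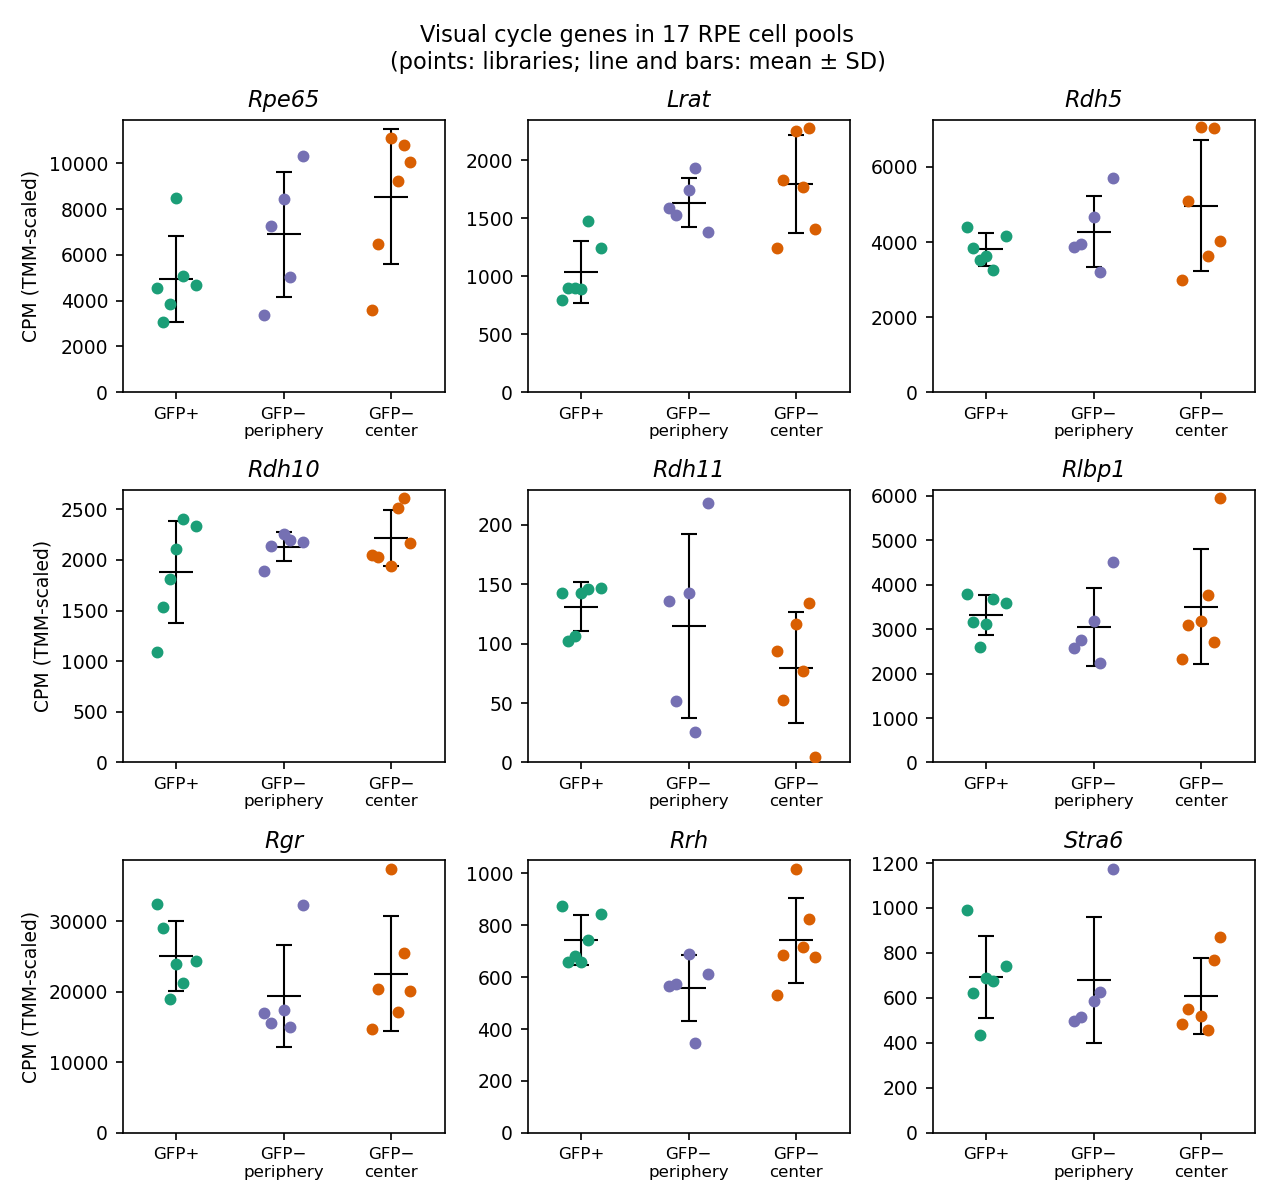
TMM-scaled CPM (y axis, starting at 0) of each visual cycle gene in the 17 libraries, by group (x axis); points are libraries, and the black line and bars are the mean and SD of a group (n = 6 GFP+, 5 GFP– periphery, 6 GFP– center). For Lrat, 5 of 6 GFP+ libraries lie below the peripheral GFP– libraries, and for Rdh11 the GFP+ libraries are the closest together.

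Calls required an adjusted p under 0.01 together with a log2 fold change beyond 1 in either direction. Of the 9 visual cycle genes, 0 were called between GFP+-RPE and central GFP–-RPE, where 0.0431% of the 9286 genes tested were called (4 genes), and 0 between GFP+-RPE and peripheral GFP–-RPE, where 0.0396% of 10102 were (4 genes). Between peripheral and central GFP–-RPE edgeR called 0 of 9535 genes (0%), members included, and 257 genes had an unadjusted p under 0.05. DESeq2 called 202, 67 and 29 genes in the same order, with 0 members among them in each comparison. All 9 members passed the filter on low counts in each comparison.

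At an unadjusted p under 0.05 the members were Rpe65 and Lrat against the center, both lower in GFP+-RPE, where 3.66% of all genes tested were lower and 2.14% higher at that limit. Against the periphery they were Lrat, lower, and Rrh, higher, beside 2.83% of genes lower and 2.75% higher. No member passed that limit between the GFP–-RPE groups, where 1.03% of genes were higher and 1.67% lower. No member's ranges of TMM-scaled CPM were apart in any comparison, where those of 0.818% of genes were apart with GFP+-RPE higher and 0.334% with it lower against the center, 0.683% and 0.634% against the periphery, and 0.524% and 0.189% between the GFP–-RPE groups (periphery higher or lower). Without the central libraries of mice 4, 5 and 7 the log2 fold changes of GFP+-RPE against the center were −0.38 for Rdh5, −0.22 for Rdh10, 0.52 for Rdh11, 0.31 for Rlbp1, 0.33 for Rgr, 0.15 for Rrh and 0.23 for Stra6, and 0 members were called. The median log2 fold change of the 9 genes was −0.07 against the center, 0.05 against the periphery and −0.17 between the GFP–-RPE groups, with 4, 5 and 2 of 9 above 0, where 50.1%, 50.8% and 50.4% of all genes were. The comparisons share libraries and are not independent of each other.

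**Figure D3:**
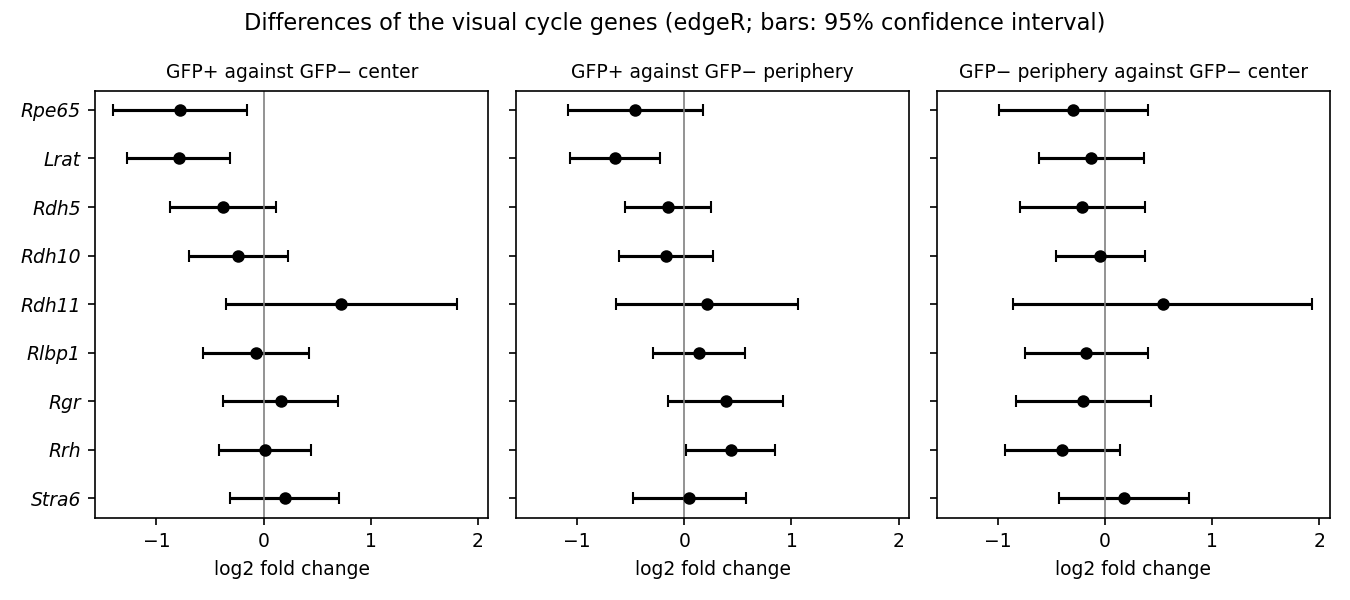
Fitted log2 fold change (x axis) of each visual cycle gene (y axis) in the 3 comparisons, with the 95% confidence interval. The intervals of Lrat lie below 0 in both comparisons of GFP+-RPE, that of Rpe65 against the center and that of Rrh (above 0) against the periphery; none of these passed adjustment over all genes.

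Scaling set the sign of several small differences. When library totals replaced TMM, the median log2 fold change of all genes moved to 0.48 for GFP+-RPE against the center, 0.16 against the periphery and 0.32 between the GFP–-RPE groups. On that scale Rdh5, Rdh10 and Rlbp1 turned above 0 against the center (0.11, 0.28 and 0.50). Lrat (−0.29) and Rpe65 (−0.20) stayed below 0, with an unadjusted p of 0.310 for Lrat in edgeR. The other 7 of 9 members were above 0, and 3 members had an unadjusted p under 0.05 in edgeR. Of all 9286 genes tested, 507 were higher and 143 lower at that limit. By library totals Rdh11, Rgr, Rrh and Stra6 were higher in GFP+-RPE than in the center in 5 of 5 mice. The highest values under any alternative were 0.68 for Rgr, 0.53 for Rrh and 0.70 for Stra6. Lrat, Rpe65, Rdh5 and Rdh10 all stayed below the median of all genes, as with TMM. The ranges of CPM by library totals were apart for Rdh11 against the center, at 128 to 173 in GFP+-RPE and 2.98 to 125 in the center, where 1.83% of genes were apart with GFP+-RPE higher. They were also apart for Rrh against the periphery, at 797 to 1045 beside 317 to 768, where 0.99% of genes were. Relative to the mean log2 count of the 9 members, which no scaling changes, Lrat lay at −1.22 to −0.37 in GFP+-RPE and at −0.19 to 0.06 in the center, and 0.248% of genes were apart from the center in that way. In the periphery Lrat lay at −0.87 to 0.55, a range that overlapped that of GFP+-RPE. The gap to the center depends on Rdh11, which lay at −8.44 (37 counts) in the central library of mouse 7 and lowers the mean there. With Rdh11 left out of the mean, Lrat of that library falls inside the GFP+-RPE range. With mitochondrial genes left out of the totals the median of all genes was 0.15 against the center, Lrat was −0.62 and Rpe65 −0.57. Lrat kept its direction under all 26 alternatives of the comparison with the center, between −0.92 and −0.29, and under all 24 with the periphery, between −0.79 and −0.51. The part of the mitochondrial share in these differences was not tested.

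**Figure D4:**
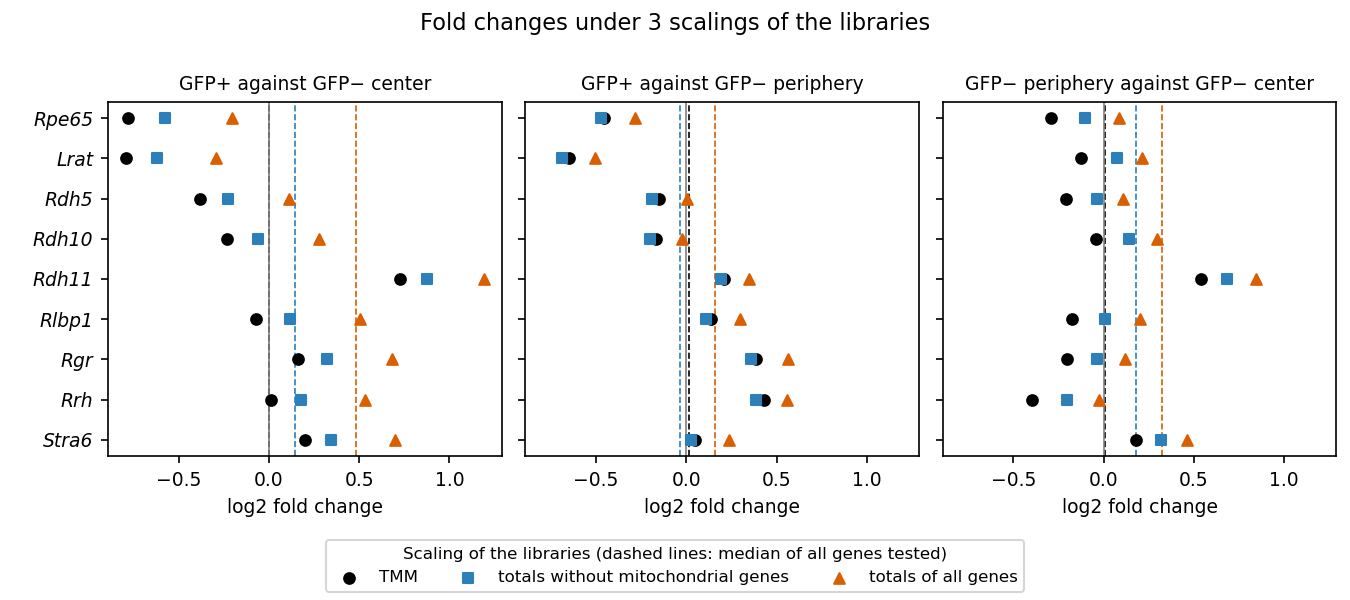
Log2 fold change (x axis) of each visual cycle gene (y axis) under 3 scalings of the libraries; dashed lines mark the median of all genes tested under each. Lrat and Rpe65 lie left of the dashed line of their own scaling in both comparisons of GFP+-RPE, by library totals at −0.29 and −0.20 against a median of 0.48 in the comparison with the center. By library totals Rdh5 and Rdh10 also lie left of the median in that comparison.

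The ratio of the counts of 2 genes within a library does not depend on scaling. All 36 pairs of the visual cycle genes were formed, and they are not independent, since each gene stands in 8 pairs. The background was all pairs among 1153 genes with a count in every library and at least as abundant as Rdh11, the lowest member. Most of these genes are less abundant than the other members, so that the background is not matched for abundance. The ranges of GFP+-RPE and the center were apart for 3 of 36 pairs, beside 3.46% of the background pairs. Those of GFP+-RPE and peripheral GFP–-RPE were also apart for 3 of 36, beside 2.64%. Between the GFP–-RPE groups the ranges were apart for 0 of 36, beside 0.689%. The pair of Lrat and Rrh, the ester synthase and peropsin, was apart from both controls. There were 0.911 to 1.99 Lrat counts for each Rrh count in GFP+-RPE, 2.26 to 5.58 in peripheral and 2.08 to 2.77 in central GFP–-RPE. Since these ranges are apart, each of the 5 mice with all groups necessarily had its lowest ratio in GFP+-RPE.

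The other pairs were apart from a single control. Lrat stood at 5.60 to 10.1 counts per Rdh11 count in GFP+-RPE and at 13.3 to 327 in the center, the upper end coming from the library of mouse 7 with 37 Rdh11 counts. Rdh5 counts per Rgr count were 0.132 to 0.186 in GFP+-RPE and 0.189 to 0.275 in the center, so that the nearest libraries almost met. Against peripheral GFP–-RPE, Rdh5 per Rrh was 4.36 to 5.84 beside 6.77 to 9.31, and Rdh10 per Rrh 1.25 to 3.24 beside 3.28 to 6.33. In all of these the ratio was the lower in GFP+-RPE. That direction follows from which gene was written first, and it turns when the genes are exchanged. In the central libraries of mice 1, 2 and 6 alone the ratios were 2.34 to 2.77 for Lrat per Rrh, 13.3 to 34.9 for Lrat per Rdh11 and 0.203 to 0.275 for Rdh5 per Rgr. For the isomerase and the most abundant opsin, Rpe65 per Rgr had means of 0.205 ± 0.0866 in GFP+-RPE (SD, n = 6), 0.362 ± 0.118 in the GFP– periphery (SD, n = 5) and 0.387 ± 0.119 in the GFP– center (SD, n = 6), with ranges that overlapped. These pairs were picked out after the values were seen and carry no test.

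**Figure D5:**
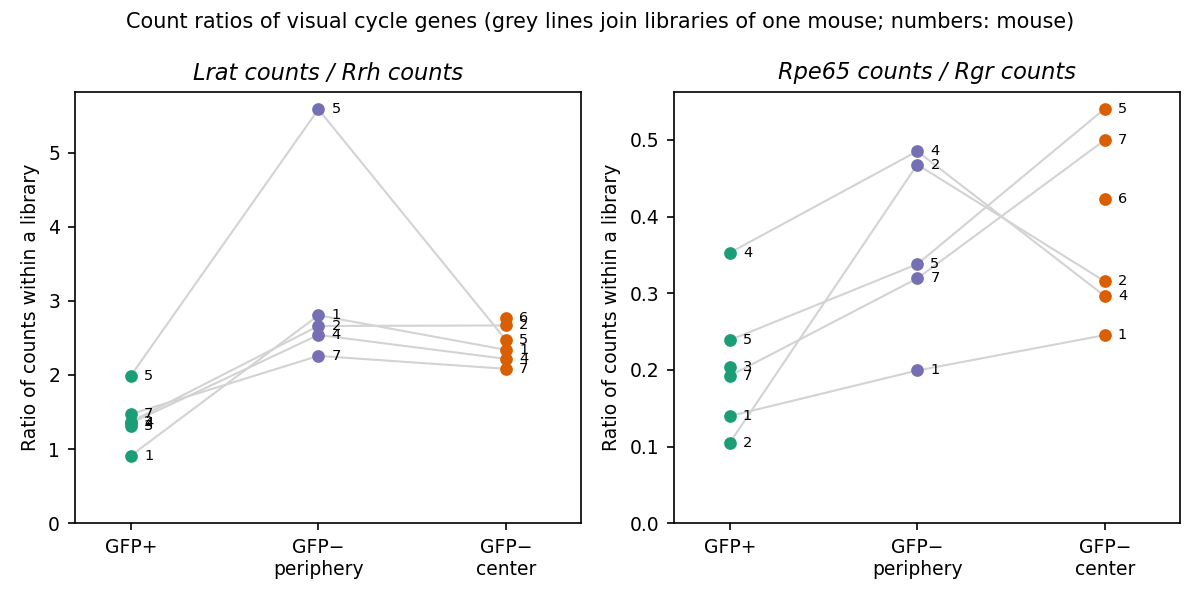
Counts of Lrat for each count of Rrh (left) and of Rpe65 for each count of Rgr (right) within a library (y axis, from 0), by group (x axis); numbers name the mouse and grey lines join libraries of a mouse. The Lrat to Rrh ratio of all 6 GFP+ libraries, at most 1.99, lies below the 11 control libraries, at least 2.08, whereas the Rpe65 to Rgr ratios overlap.

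Stretches of 250 bases upstream of the RefSeq start sites (GRCm38.p6) are shown for Lrat, the member with the lowest unadjusted p, and for Rgr, the most abundant. That of Lrat (chr3:82903975-82904224, minus strand) had 59.2% G and C and 18 CpG, and that of Rgr (chr14:37049015-37049264, minus strand) 41.2% and 0 CpG. Capitals mark TATAA in Lrat, at position −29 from the start, and in Rgr the letters TAATCC, the core bound by OTX2 and CRX, at position −167.
Lrat: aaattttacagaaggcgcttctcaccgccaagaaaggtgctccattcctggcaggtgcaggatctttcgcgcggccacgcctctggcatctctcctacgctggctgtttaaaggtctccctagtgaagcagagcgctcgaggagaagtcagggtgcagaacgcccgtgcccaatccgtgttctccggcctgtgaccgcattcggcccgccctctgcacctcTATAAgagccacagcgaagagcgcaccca
Rgr: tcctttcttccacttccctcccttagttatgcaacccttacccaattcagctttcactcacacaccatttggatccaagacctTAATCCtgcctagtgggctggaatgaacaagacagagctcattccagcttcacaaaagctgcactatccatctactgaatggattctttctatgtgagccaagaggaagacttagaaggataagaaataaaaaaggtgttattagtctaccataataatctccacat

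Promoters of 300 bases, 250 of them upstream, were matched for 8 of the 9 genes, with 12 promoters between them, and were searched on both strands for TAATCC, for the E-boxes CATGTG and CACGTG that MITF binds, and for TATAA. Rpe65 and Rgr held TAATCC, which 7.06% of 32851 promoters hold. Rpe65, Rlbp1 and Rgr held CATGTG (14.2% of promoters), 1 of the Rdh11 promoters held CACGTG (7.15%), and Lrat, Rrh and Rlbp1 held TATAA (24.9%). For Rpe65 and Rlbp1, the isomerase and the carrier, windows of 30 bases are shown at chr3:159599127-159599156 (plus strand, with the reverse complement of TAATCC in capitals, at position −42) and at chr7:79387134-79387163 (minus strand, with the reverse complement of CATGTG, at position −124). The matches describe the letters alone.
Rpe65: ctcctccaataaGGATTAgattgcatacaa
Rlbp1: atttccctctgcCACATGggacagtggacc

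Transcription factors of the RPE were measured too, among them Otx2 and Mitf, whose products bind motifs searched above. Otx2 had 650 ± 131 CPM in GFP+-RPE (SD, n = 6), 587 ± 76.4 in the GFP– periphery (SD, n = 5) and 592 ± 94.4 in the GFP– center (SD, n = 6), and Mitf 74.5 ± 22.1, 69.3 ± 33.8 and 79.5 ± 50.2. Of 7 factors listed, 5 were tested and 0 had an unadjusted p under 0.05 in any comparison, by edgeR. Sox9 averaged 296 CPM and Lhx2 85.6 over the 17 libraries, and Crx, which belongs to photoreceptors, had at most 3 counts.

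Across the 17 libraries, which share mice and differ in mitochondrial share, the 9 genes varied with each other only in part. Spearman's correlation of log2(CPM + 1) over the 36 pairs ran from −0.31 to 0.66 with a median of 0.34, and 31 pairs were above 0. The opsins Rgr and Rrh were the most alike pair (0.66), followed by Rdh5 and Rgr (0.63) and Rgr and Stra6 (0.60). All 5 pairs below 0 held Lrat or Rdh10: Lrat with Rdh11 (−0.31), Rlbp1 (−0.21), Stra6 (−0.17) and Rgr (−0.16), and Rdh10 with Rgr (−0.17). These are descriptions over libraries and no test was made.

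Searched over 10660 genes, the gene most like each member was never another member. It was 1110002E22Rik for Rpe65 (Spearman's correlation 0.86), Sema3c for Lrat (0.83), Map1lc3a for Rdh5 (0.87), St13 for Rdh10 (0.86), Nmb for Rdh11 (0.92), Nipsnap3b for Rlbp1 (0.88), Ctsf for Rgr (0.91), Bad for Rrh (0.80) and Arfgap2 for Stra6 (0.85), over 17 libraries each. With so many genes searched, values of this size are a description only. The coefficient of variation of the members over the libraries ran from 17.5% for Rdh10 to 49.2% for Rdh11, with Rpe65 at 41.9% and the other 6 at or under 31.0%, beside a median of 36.1% over the 1164 genes at least as abundant as the lowest member.

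The animals fall into 2 runs of numbers, mice 1 to 3 and mice 4 to 7. Rpe65 was higher in the second run in each group, with means of 3814 and 6082 CPM in GFP+-RPE (n = 3 and 3), 5328 and 7936 in peripheral (n = 2 and 3) and 5029 and 10302 in central GFP–-RPE (n = 2 and 4). Within both runs the mean was lower in GFP+-RPE than in the center. Lrat was lower in GFP+-RPE than in either control within both runs, at 865 beside 1555 and 1535 CPM in the first and at 1204 beside 1689 and 1928 in the second. A test of whether a comparison between groups differed between the runs found no member with an adjusted p under 0.05 in edgeR, and the difference in level between the runs was not tested.

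Of 35 other genes of retinoid uptake, binding and metabolism, 14 passed the filter and 0 were called in each comparison. Degs1, whose product has been assigned retinol isomerase activity beside its role in ceramide synthesis, had 1067 ± 147 CPM in GFP+-RPE (SD, n = 6), 717 ± 283 in the GFP– periphery (SD, n = 5) and 454 ± 183 in the GFP– center (SD, n = 6). All 6 GFP+-RPE libraries, at 978 to 1363, were above the 6 central ones, at 192 to 632 (284, 580 and 436 in mice 1, 2 and 6), and the log2 fold change was 1.24 (SE 0.28, unadjusted p 0.000316, adjusted p 0.0729 in edgeR). Against the periphery it was 0.59 (unadjusted p 0.0257, adjusted p 0.783 in edgeR), with overlapping ranges. Retsat, which saturates all-trans-retinol, was at 60.7 to 114 CPM in GFP+-RPE and at 28.5, 66.9, 38.2, 11.0 and 46.9 in the peripheral GFP–-RPE libraries of mice 1, 2, 4, 5 and 7, with a log2 fold change of 1.16 (SE 0.39, adjusted p 0.646 in edgeR). In the center it was at 45.1 to 190 CPM, with a log2 fold change of −0.08 for GFP+-RPE (adjusted p 1.00 in edgeR). Ttr, which carries retinol outside the cell together with its binding protein, was the most abundant of the list, with a mean of 30827 CPM over the 17 libraries and log2 fold changes of 0.28 against the center and 0.21 against the periphery. Bco2, which cleaves carotenoids, was named after its values were seen: its ranges in GFP+-RPE (3.75 to 13.0 CPM) and peripheral GFP–-RPE (13.9 to 32.8) were apart, with a log2 fold change of −1.33 and an adjusted p of 0.935 in edgeR. Ranges were apart for 1 of the 14 against the center, beside 0.818% of all genes higher and 0.334% lower. Against the periphery they were apart for 1 of 14, beside 0.683% higher and 0.634% lower. Median log2 fold changes of the 14 were −0.13, 0.21 and 0.06.

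The photoreceptor side of the cycle was at low counts apart from Abca4. Abca4, a retinoid transporter that RPE cells also express, had 157 ± 45.9 CPM in GFP+-RPE (SD, n = 6), 108 ± 28.3 in the GFP– periphery (SD, n = 5) and 136 ± 57.0 in the GFP– center (SD, n = 6). Rdh8, the all-trans-retinol dehydrogenase of photoreceptors, was at 0 in all 17 libraries, and Rbp3 had at most 1 count. Of 7 genes listed, 2 were tested and 0 were called.

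Markers of other cell types were read beside these levels, since Mueller glia also express Rlbp1 and Rgr. The 12 Mueller genes summed to 6530 to 8937 CPM in GFP+-RPE, 6265 to 9311 in peripheral and 5774 to 11844 in central GFP–-RPE, carried by Apoe, Car14, Dbi, Glul and Prdx6, which RPE cells express as well. Of the defining genes Aqp4 and Slc1a3 were at 0 in all GFP+-RPE libraries, and Slc1a3 reached at most 9.23 CPM elsewhere. Dkk3, another gene of this list, had a mean of 8.93 CPM in GFP+-RPE (0 to 26.8, above 0 in 5 of 6) and 4.12 in the GFP– periphery (0 to 15.4, above 0 in 3 of 5) and was at 0 in the 6 central libraries; its part in the levels of Rlbp1 and Rgr was not tested. The 18 photoreceptor genes summed to 90.9 to 180 CPM in GFP+-RPE, 105 to 174 in peripheral and 129 to 292 in central GFP–-RPE, mostly Rom1, and Rcvrn was at 0 throughout. The 10 macrophage genes summed to 38.0 to 106, 103 to 143 and 70.4 to 139 CPM, nearly all from Csf1r, with C1qa, C1qb and Tyrobp at 0 in every library. Endothelial genes summed to at most 26.5 CPM, fibroblast genes, mostly Acta2, to at most 547 and melanocyte genes other than those of the RPE to at most 254. The 24 other genes of RPE identity summed to 50924 to 59994 CPM in GFP+-RPE, 42289 to 59262 in peripheral and 36442 to 57595 in central GFP–-RPE. Ttr alone had means of 34164, 29843 and 28310 CPM in this order. Of the 24, 21 were tested against the center and 22 against the periphery, and 0 were called in either comparison. At an unadjusted p under 0.05 in edgeR, 4 of the 21 were higher and 2 lower in GFP+-RPE than in the center. Ranges were apart from the center for 2 of 21, beside 0.818% of all genes higher and 0.334% lower. They were apart from the periphery for 0 of 22. Between the GFP–-RPE groups Mertk alone was apart, at 50.2 to 79.4 CPM in the periphery and 98.9 to 202 in the center. Tyrp1, for a melanin enzyme, and Trpm1 were named after their values were seen: against the center their ranges were apart, at 69.6 to 514 beside 0 to 9.15 CPM for Tyrp1 (adjusted p 0.0533 in edgeR) and at 7.05 to 45.7 beside 0 to 0.662 for Trpm1 (adjusted p 0.0733). Best1, a chloride channel gene of the RPE, was at 0 in the GFP+-RPE libraries and had at most 2 counts elsewhere.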

How the data were processed

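The authors deposited estimated counts per gene symbol as whole numbers without normalization, from SMART-Seq libraries. The submitters' processing notes name fastp, Salmon and the genome build GRCm38.p6, without versions, and the use of strand is not given in the sources used here. All 17 columns were matched to samples by name, leaving 0 unused. No molecular identifiers are described, so that PCR copies are counted, and a count of 0 allows up to 3 counts. Groups and animals came from the labels.

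R (version 4.3.3) and edgeR (version 4.0.16) were used to compare groups by the quasi-likelihood test after TMM scaling and default filtering, on the libraries of the 2 groups, with Benjamini-Hochberg adjustment over all genes tested. CPM values were scaled by TMM over all 17 libraries. Alternatives were DESeq2 (version 1.42.0), which the study's methods name, other size factors, filters and scalings, all groups in a fit, the mouse as a block, the run as a covariate, robust estimation, another limit and leaving out each library. Totals without TMM and leaving out the central libraries of mice 4, 5 and 7 were added after seeing the data. Same-numbered libraries come from the same animal. Their deviations from the group means correlated at −0.0194 to 0.0927 over 15 pairs, 0 of them over 0.1. No library was a copy of another, the highest correlation of log2 counts between 2 libraries being 0.924. Gene positions and lengths came from GENCODE on GRCm38 and promoters from RefSeq. The scripts were tested on simulated data with larger changes and less spread than these data. The power to find differences of the size seen for the members was not measured.

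The members, lists and alternatives were chosen with earlier results of these data known. Named were all 9 members, genes of the 3 related lists with an unadjusted p under 0.05 or the highest means, the most abundant markers and the gene most like each member. Values of some listed genes are not reported here.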

Additional observations from a re-analysis of the deposited data

Results flagged for a closer look

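Samples standing apart within a group were looked for in 27 groups of libraries (9 genes in 3 groups), by the gap of the highest or lowest library to its nearest neighbour over the range of the group, and 2 exceeded the critical value of 0.71 for 5 libraries. Chance alone flags about 1 in 20 such groups. Both were the peripheral GFP–-RPE library of mouse 7. Rgr was at 32317 CPM (336029 counts) there and at most 17390.3 in the other 4, a gap of 0.859 of the range. Stra6 was at 1174 CPM (12205 counts) beside at most 626, a gap of 0.811 of the range.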

How the results depend on the processing

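Of the 9 visual cycle genes, 0 were called under any alternative that was run, in any comparison. Counts of called genes over the whole table, which were 4 for GFP+-RPE against the center, 4 against the periphery and 0 between the GFP–-RPE groups, moved more. DESeq2 called 202, 67 and 29. Against the center, a filter of 10 counts in 5 libraries called 2, the run as a covariate 1, an adjusted p under 0.05 with any fold 8, and library totals without mitochondrial genes 2. Against the periphery, all 3 groups in a fit called 0 and the run as a covariate 1. Without the central libraries of mice 4, 5 and 7, 1 gene was called between the GFP–-RPE groups. Leaving out each library in turn gave 1 to 3 genes against the center and 0 to 5 against the periphery. The cause of these shifts was not tested.

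With the mouse as a replicate block, 60 genes were called against the center, 0 against the periphery and 0 between the GFP–-RPE groups. Of the 60, 58 were lower and 2 higher in GFP+-RPE, whereas the 4 called without the block were higher, and the median log2 fold change of all genes under the block was 0.58 against the center, 0.07 against the periphery and 0.48 between the GFP–-RPE groups. The block called no member. It turned Rdh10 between the GFP–-RPE groups from −0.041 to 0.020, and Lrat was −0.69 against the center and −0.64 against the periphery.

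Directions turned for members that were not called. With library totals, log2 fold changes became 0.11 for Rdh5, 0.28 for Rdh10 and 0.50 for Rlbp1 against the center, 0.0035 for Rdh5 against the periphery and, between the GFP–-RPE groups, 0.082 for Rpe65, 0.21 for Lrat, 0.10 for Rdh5, 0.30 for Rdh10, 0.20 for Rlbp1 and 0.12 for Rgr. Leaving mitochondrial genes out of the totals gave 0.12 for Rlbp1 against the center and 0.071 for Lrat, 0.14 for Rdh10 and 0.0068 for Rlbp1 between the GFP–-RPE groups. With no filter, Rlbp1 was 0.054 against the center and Rdh10 0.039 between the GFP–-RPE groups. Without the central libraries of mice 4, 5 and 7, Rlbp1 was 0.31 against the center and 0.17 between the GFP–-RPE groups. Leaving out single libraries gave −0.14 to 0.14 for Rlbp1 and −0.037 to 0.11 for Rrh against the center, −0.035 to 0.56 for Rdh11 and −0.080 to 0.32 for Stra6 against the periphery and, between the GFP–-RPE groups, −0.078 to 0.019 for Rdh10, −0.36 to 0.036 for Rlbp1, −0.47 to 0.000242 for Rgr and −0.12 to 0.30 for Stra6.

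The smallest count of a member was 37, that of Rdh11 in the central library of mouse 7. The part of depth in the levels of these genes was not tested.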
